A study of Ovis aries with 10 samples.

Results

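The insulin-like growth factor (IGF) family was measured in the mediobasal hypothalamus of adult Ile-de-France ewes by RNA sequencing. It comprised 9 genes of the 33775 in the count table: the ligands IGF1 and IGF2, the receptor IGF1R, and the binding proteins IGFBP2 to IGFBP7. The genes were chosen by name with the luteal over follicular fold changes of these same libraries already known, so their phase differences are given as a description and not as independent evidence. Each was found once in the table, and all 9 were among the 18276 genes that passed the filter on low counts. The tissue, the ventral hypothalamus with the arcuate nucleus and the median eminence, came from 10 ewes in the luteal phase, when the ovary secretes progesterone, and 10 in the follicular phase, when oestradiol dominates. Each library held equal amounts of RNA of 2 ewes of 1 phase, drawn at random, which gave 5 luteal and 5 follicular libraries. The ewes were not described as carrying any treatment or allele, and the phase was the single difference the labels gave.

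IGF1 and IGF2 are small secreted peptides that act mainly through IGF1R, a receptor tyrosine kinase of the insulin receptor family, and from there through the insulin receptor substrates, AKT and the MAP kinases. The binding proteins hold the ligands outside the cell, lengthen their life and restrain or deliver them to the receptor, and several also act on cells without a ligand. In the brain IGF2 is known mainly from the choroid plexus, the meninges and blood vessels, from work in rodents, while IGF1 reaching the hypothalamus from blood is known to inform the neurons that control gonadotropin-releasing hormone of growth and nutrition. No protein or nucleotide sequence of these genes was used here.

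Levels are CPM, a gene's reads relative to the total of its library (counts per 1000000 reads), after scaling by TMM (trimmed mean of M-values). Exon lengths were not used here, so levels are compared between libraries and not between genes. Library totals ran from 28571863 to 42358557 reads in luteal and from 20644992 to 43193449 reads in follicular libraries. The summed level of 8 marker genes of the mediobasal hypothalamus (POMC, AGRP, NPY, KISS1, TAC3, TBX3, NR5A1 and GHRH) was 1277 to 1787 CPM in luteal and 1288 to 2193 CPM in follicular libraries. The libraries also differed along 1 broad axis, the first principal component of log2 CPM, which held 51.0% of the variance. Its scores ran from -14.4 to 58.2 in luteal and from -61.6 to 48.1 in follicular libraries. Follicular 3 and 1 lay lowest on it, and follicular 5 lay among the luteal libraries. In bulk tissue, fewer cells of a type and less RNA per cell cannot be told apart.

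IGFBP5 and IGFBP4 averaged higher in luteal libraries, by 1.63-fold and 1.82-fold. IGFBP2 and IGFBP6 averaged lower in luteal libraries, each at 0.75 of the follicular level. IGF1R, IGF1, IGF2, IGFBP3 and IGFBP7 differed by at most 0.18 on the log2 scale in either direction. The quasi-likelihood F-test of edgeR, adjusted over all genes tested, called 0 of the 9 members. It also called 0 of the 18276 genes tested (0%). At an unadjusted edgeR p under 0.05, 2 members were found, IGFBP5 and IGFBP4, both higher in luteal libraries, beside 4.27% of all genes higher and 7.12% lower. Limma-voom called 0 members (0% of all genes), and DESeq2 called 0 members (0.192% of all genes). In no member did the luteal and follicular values stand fully apart, which they did for 1.12% of all genes. Of the members, 4 were higher and 5 lower in luteal libraries with a median log2 fold change of -0.03, beside 51.5% of all genes higher and a median of 0.01.

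**Figure D1:**
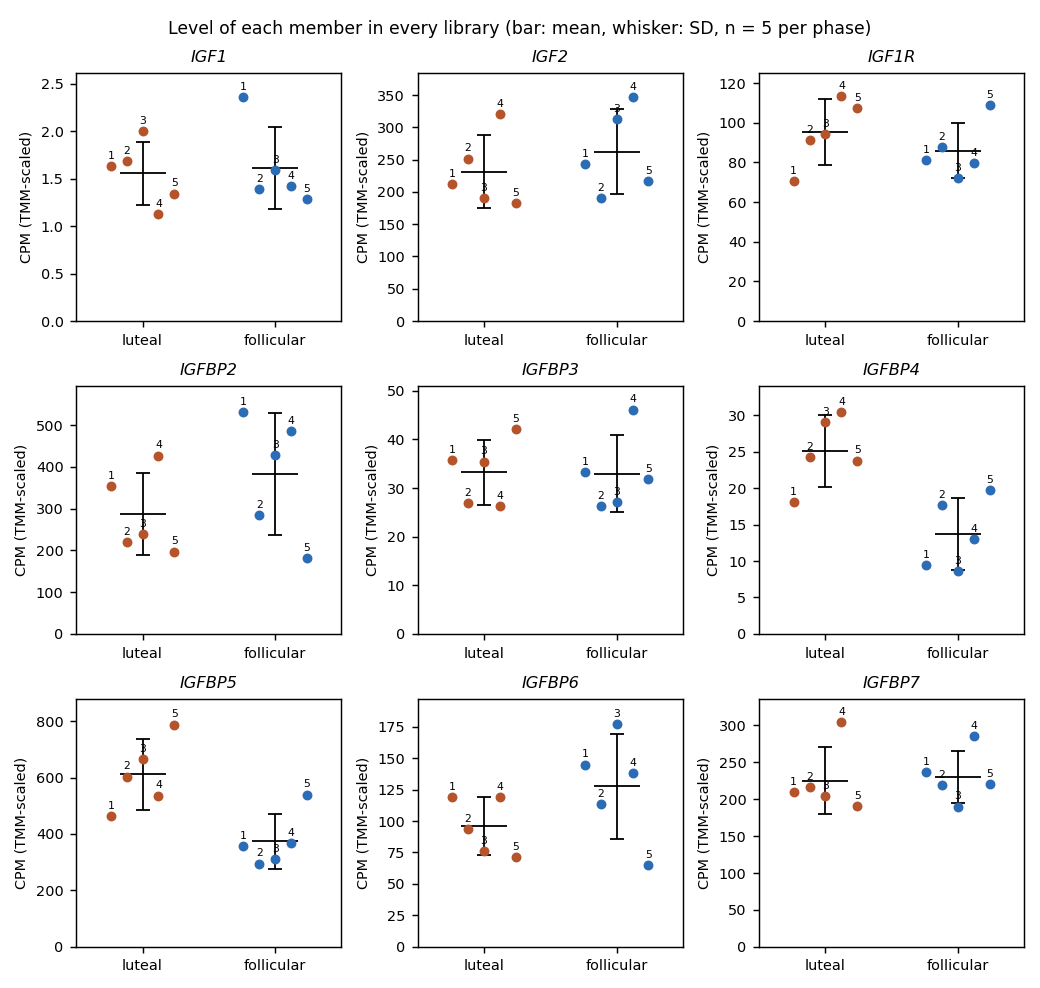
Each panel plots the level of 1 member in CPM (TMM-scaled, axis from 0) in the 5 luteal and the 5 follicular libraries, with the library number beside each point, the mean as a bar and the SD as a whisker. IGFBP5 ran from 462.2 to 788.0 CPM in luteal and from 294.5 to 539.6 CPM in follicular libraries, and follicular 5 is the follicular library inside the luteal range.

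IGFBP5, the binding protein whose protein sequence is the most conserved of the family between mammals and which binds extracellular matrix, had 462.2, 603.6, 665.3, 536.1 and 788.0 CPM in luteal libraries 1 to 5. In follicular libraries 1 to 5 it had 356.5, 294.5, 309.7, 368.3 and 539.6 CPM. All 5 luteal libraries lay above the follicular median, 3 of them above every follicular library, and follicular 5 lay above luteal 1 and 4. IGFBP5 thus averaged 611.0 ± 125 CPM in luteal and 373.7 ± 97.7 CPM in follicular libraries (SD, n = 5 per phase). The log2 fold change of luteal over follicular was 0.71 (SE 0.19; edgeR adjusted p = 0.426). The gene rested on at least 5836 reads in every library, so counting error was small beside the spread between libraries.

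IGFBP4, which mostly restrains IGF action and is cut by the metalloproteinase PAPPA, had 18.0, 24.2, 29.1, 30.4 and 23.8 CPM in luteal libraries 1 to 5. In follicular libraries 1 to 5 it had 9.48, 17.7, 8.65, 13.0 and 19.7 CPM. Follicular 3 and 1 were the lowest of all 10 libraries, and only luteal 1 lay below the highest follicular library, follicular 5. The means were 25.1 ± 4.91 CPM in luteal and 13.7 ± 4.89 CPM in follicular libraries (SD, n = 5 each; log2 fold change 0.87, SE 0.24; edgeR adjusted p = 0.426). Without follicular 1 and 3, the shallowest libraries, the log2 fold change was 0.58 (SE 0.20) for IGFBP4 and 0.61 (SE 0.22) for IGFBP5. With the first principal component in the model, an alternative chosen after the data had been seen, it was 0.60 (SE 0.18) for IGFBP4 and 0.43 (SE 0.13) for IGFBP5.

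IGFBP2, the main binding protein of cerebrospinal fluid, had 354.7, 220.6, 238.8, 426.7 and 196.8 CPM in luteal libraries 1 to 5. In follicular libraries 1 to 5 it had 531.8, 284.4, 428.3, 485.7 and 180.7 CPM. All 5 luteal libraries lay below the follicular median, yet the lowest value of all was that of follicular 5. It averaged 287.5 ± 98.7 CPM in luteal and 382.2 ± 146 CPM in follicular libraries (SD, n = 5 each; log2 fold change -0.41, SE 0.30; edgeR adjusted p = 0.490). The level varied within a phase by as much as 2.17-fold in luteal and 2.94-fold in follicular libraries, the widest range of any member in each phase.

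IGFBP6, which binds IGF2 in preference to IGF1, had 119.2, 93.8, 76.1, 119.4 and 71.5 CPM in luteal libraries 1 to 5. In follicular libraries 1 to 5 it had 144.8, 113.8, 176.9, 138.1 and 65.0 CPM. The order of libraries was close to that of IGFBP2: luteal 1 and 4 were the highest luteal libraries for each, and follicular 5 was the lowest of all 10. IGFBP6 averaged 96.0 ± 22.8 CPM in luteal and 127.7 ± 41.7 CPM in follicular libraries (SD, n = 5 each; log2 fold change -0.41, SE 0.24; edgeR adjusted p = 0.442). Without follicular 1 and 3 the log2 fold change was -0.14 (SE 0.33) for IGFBP2 and -0.13 (SE 0.25) for IGFBP6, and with the first principal component in the model it was 0.20 (SE 0.15) and 0.11 (SE 0.07). IGFBP2 and IGFBP6 followed that component closely (Pearson's r = -0.92 and -0.98 over the same 10 libraries), and IGFBP4 and IGFBP5 followed it at r = 0.81 and 0.83. For these genes that fit gives the phase difference at an equal score on the component, which is not the difference between the phase means. Why the sign turned for IGFBP2 and IGFBP6 was not tested.

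**Figure D2:**
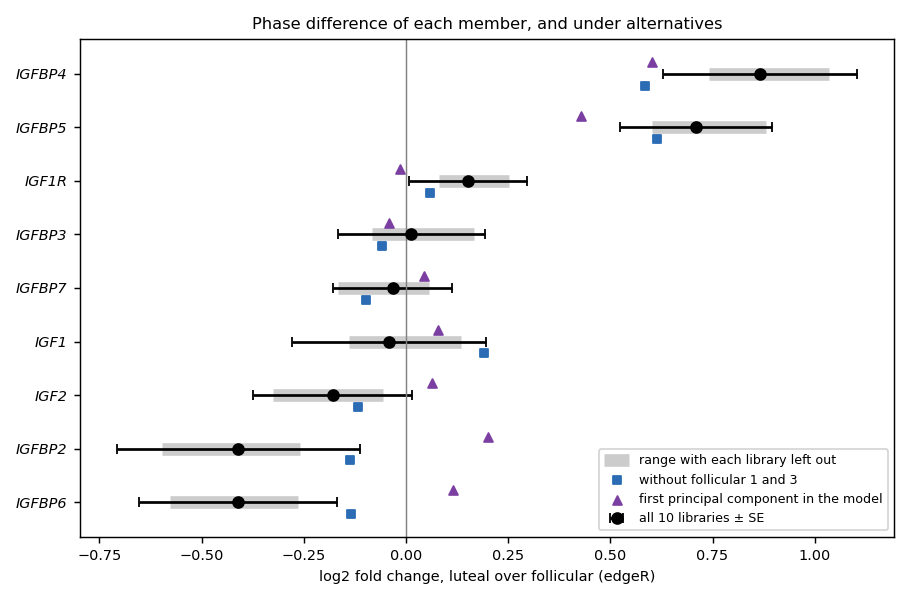
The horizontal axis gives the log2 fold change of luteal over follicular by edgeR, with 1 row per member. Black points with whiskers are all 10 libraries ± SE, grey bars the range with each library left out, squares the value without follicular 1 and 3, and triangles the value with the first principal component in the model. IGFBP4 and IGFBP5 lie to the right of 0 in every setting shown, and IGFBP2 and IGFBP6 lie to the left except with the component in the model.

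The remaining binding proteins showed small phase differences. IGFBP3, the main carrier of IGF in blood, ranged from 26.3 to 42.1 CPM in luteal and from 26.3 to 46.1 CPM in follicular libraries. Its means were 33.3 ± 6.67 and 33.0 ± 7.95 CPM (SD, n = 5 each; log2 fold change 0.01, SE 0.18; edgeR adjusted p = 0.973). IGFBP7, a member with low affinity for IGF that is made by vessel walls, ranged from 191.2 to 304.8 CPM in luteal and from 190.0 to 285.2 CPM in follicular libraries. Its luteal maximum was that of luteal 4, and the other luteal libraries did not exceed 216.6 CPM. IGFBP7 averaged 225.2 ± 45.5 CPM in luteal and 230.4 ± 34.9 CPM in follicular libraries (SD, n = 5 each; log2 fold change -0.03, SE 0.15; edgeR adjusted p = 0.915). The signs of IGFBP3 and IGFBP7 turned when single libraries were left out. 

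Among the ligands, IGF2 had 211.7, 251.8, 190.7, 320.4 and 183.2 CPM in luteal libraries 1 to 5 and 243.1, 190.9, 313.4, 346.9 and 217.0 CPM in follicular libraries 1 to 5. The phases overlapped over most of their range, with 2 luteal libraries below and 0 above all follicular ones. Its means were 231.6 ± 56.4 CPM in luteal and 262.3 ± 65.7 CPM in follicular libraries (SD, n = 5 each; log2 fold change -0.18, SE 0.20; edgeR adjusted p = 0.624). IGF1 was sparse, with 46 to 67 reads in luteal and 30 to 59 reads in follicular libraries. The 30 reads of follicular 3 have an exact 95% Poisson interval of 20.2 to 42.8 reads, and such intervals cover counting error only. IGF1 averaged 1.56 ± 0.34 CPM in luteal and 1.61 ± 0.43 CPM in follicular libraries (SD, n = 5 each; log2 fold change -0.04, SE 0.24; edgeR adjusted p = 0.936). The SE of its log2 fold change was close to that of IGFBP4 (0.24) and IGFBP6 (0.24), which had more reads.

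The receptor IGF1R had 70.5, 91.2, 94.4, 113.6 and 107.4 CPM in luteal libraries 1 to 5 and 81.3, 87.6, 72.1, 79.5 and 108.8 CPM in follicular libraries 1 to 5. The lowest level of all was in luteal 1, and follicular 5 stood with the highest luteal libraries. IGF1R averaged 95.4 ± 16.7 CPM in luteal and 85.9 ± 13.9 CPM in follicular libraries (SD, n = 5 each; log2 fold change 0.15, SE 0.14; edgeR adjusted p = 0.581). It varied by 1.61-fold within luteal and 1.51-fold within follicular libraries.

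The 9 members took 0.149% to 0.181% of all reads in luteal and 0.124% to 0.164% in follicular libraries. Of these reads IGFBP5 took 28.5% to 49.1% in luteal and 20.3% to 39.0% in follicular libraries, and IGFBP2 took 12.3% to 23.9% in luteal and 13.0% to 32.4% in follicular libraries. IGFBP2 and IGFBP5 are neighbours in the assembly ARS-UI_Ramb_v3.0, with no protein-coding gene between them. The ratio of IGFBP2 to IGFBP5 reads, which no scaling of the library can alter, was 0.767, 0.365, 0.359, 0.796 and 0.2498 in luteal libraries 1 to 5. It was 1.49, 0.966, 1.38, 1.32 and 0.335 in follicular libraries 1 to 5. The ratio was higher in follicular 1 to 4 than in every luteal library, and follicular 5 lay within the luteal range. The ratio was picked after the values had been seen and was not tested.

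Across the 10 libraries IGFBP2 and IGFBP6 varied together. Over 36 pairs of members theirs was the only correlation of log2 CPM that passed adjustment, with Pearson's r = 0.91 (permutation test, p = 0.00034, adjusted p = 0.0122) and Spearman's rho = 0.95 (permutation test, p = 0.00011, adjusted p = 0.00396). Without the 2 libraries farthest from the IGFBP2 median Pearson's r was 0.88, and for deviations from the phase means it was 0.90. In the opposite direction, IGFBP5 and IGFBP6 had Pearson's r = -0.80 and Spearman's rho = -0.73, which did not pass (permutation test, p = 0.007 and 0.0201, adjusted p = 0.102 and 0.181), and Pearson's r was -0.83 without the 2 libraries farthest from the IGFBP5 median. IGFBP4 and IGFBP5, the members with the largest luteal excess, had Pearson's r = 0.78 and Spearman's rho = 0.77, which did not pass either (permutation test, p = 0.00847 and 0.0122, adjusted p = 0.102 and 0.174), and Pearson's r was 0.70 without the 2 libraries farthest from the IGFBP4 median and 0.45 for deviations from the phase means.

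These relations moved with the broad axis of the libraries. The first principal component correlated with IGFBP6 at Pearson's r = -0.98, with IGFBP2 at -0.92, with IGFBP5 at 0.83 and with IGFBP4 at 0.81 over the 10 libraries, given as a description because the component was made from the same libraries. A larger correlation in size was found for 3.91% of all genes tested in the case of IGFBP6, 21.7% for IGFBP2, 36.4% for IGFBP5 and 39.3% for IGFBP4. Following the axis was thus common among all genes, and IGFBP6 was among those that followed it most closely. IGF1, IGFBP3 and IGFBP7 followed it least, with r of -0.28, 0.16 and -0.28.

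**Figure D3:**
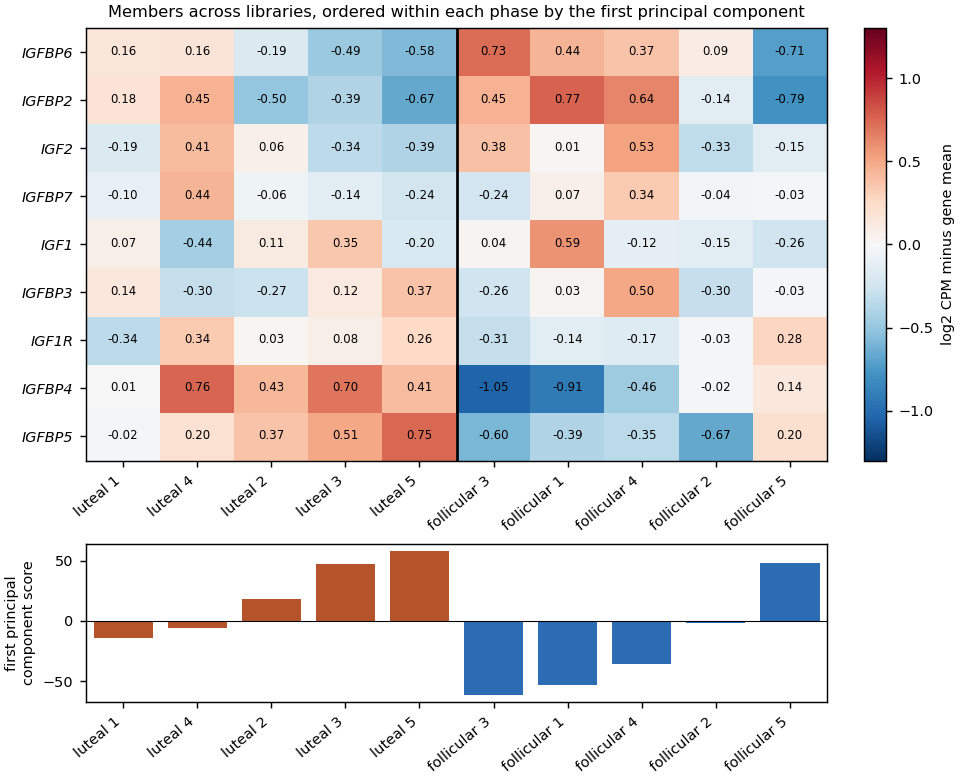
The upper panel gives each member's log2 CPM minus its mean over the 10 libraries (red higher, blue lower), and the lower panel the library's score on the first principal component, by which libraries are ordered within each phase, luteal on the left. IGFBP6 and IGFBP2 run against the score and IGFBP4 and IGFBP5 mostly with it, and follicular 5, with a score of 48.1, has the lowest IGFBP2 and IGFBP6 of all libraries.

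Markers of the cells that could carry these genes were summed per library. The sum of 6 astrocyte markers, led by GFAP and ALDOC, was 3509 to 5428 CPM in luteal and 4410 to 5703 CPM in follicular libraries, and 4 of the 6 averaged lower in luteal libraries. GFAP and ALDOC were among those lower (log2 fold change -0.35 and -0.38), while AQP4 and SLC1A3 averaged higher in luteal libraries (0.42 and 0.26). The sum of 5 pars tuberalis and pituitary markers was 1844 to 3192 CPM in luteal and 2676 to 3472 CPM in follicular libraries. In that list 3 of 5 averaged lower, among them CGA, the alpha subunit of the glycoprotein hormones. Within the luteal phase the 2 libraries highest in IGFBP2 and IGFBP6, luteal 1 and 4, had the highest sums of this list, 2974 and 3192 CPM, while follicular 5 had a sum of 3235 CPM with the lowest IGFBP2 and IGFBP6.

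For the vessel wall and the brain's coverings, the 7 endothelial markers summed to 213.0 to 245.6 CPM in luteal and 187.9 to 248.9 CPM in follicular libraries. Of these 7 markers 6 averaged higher in luteal, 3 of them (CDH5, TEK and KDR) at an unadjusted edgeR p under 0.05 beside 4.27% of all genes, and 0 passed after adjustment. The 8 mural cell markers summed to 443.1 to 506.3 CPM in luteal and 407.7 to 523.3 CPM in follicular libraries, with 4 of 8 higher in luteal. Of these 8 only NOTCH3 had an unadjusted edgeR p under 0.05 (log2 fold change 0.43, edgeR adjusted p = 0.426). Its luteal values all lay above its follicular values, as for 0.607% of all genes. DESeq2 called it (adjusted p = 0.0013), beside 0.192% of all genes. The 8 markers of meningeal fibroblasts summed to 675.7 to 871.2 CPM in luteal and 662.0 to 802.6 CPM in follicular libraries, with 7 of 8 higher in luteal. The 8 choroid plexus markers, led by TTR, summed to 37.7 to 121.2 CPM in luteal and 25.5 to 58.4 CPM in follicular libraries, and all 7 of them that were tested averaged higher in luteal. The median of their sum was 47.0 CPM in luteal and 49.7 CPM in follicular libraries, and TTR in luteal 4 was at 94.2 CPM. Luteal 4, the luteal library highest in IGF2 and IGFBP7, had the largest choroid plexus sum (121.2 CPM) and the largest meningeal sum (871.2 CPM). Follicular 4, the library highest in IGF2 of all 10 and second to luteal 4 in IGFBP7, had a choroid plexus sum of 37.9 CPM and a meningeal sum of 757.3 CPM. These same 2 libraries had the highest mural sums of all 10, 523.3 CPM in follicular 4 and 506.3 CPM in luteal 4. The endothelial sum was highest in follicular 4 (248.9 CPM), while that of luteal 4 (232.0 CPM) lay below those of luteal 1 and 2. The 8 tanycyte markers summed to 1457 to 1846 CPM in luteal and 1337 to 1573 CPM in follicular libraries. Most of this sum was VIM, which averaged 1023 CPM in luteal and 875 CPM in follicular libraries. Of the 7 tanycyte markers tested, 4 averaged higher and 3 lower in luteal libraries. Those lower were DIO2 (log2 fold change -0.65), NES (-0.20) and RAX (-0.13). Of the other cell types, the 6 oligodendrocyte markers summed to 508.8 to 1281 CPM in luteal and 826.7 to 1400 CPM in follicular libraries, with 6 of 6 lower in luteal. The 6 microglial markers summed to 300.0 to 339.6 CPM in luteal and 284.7 to 432.9 CPM in follicular libraries, and the 6 neuronal markers to 648.0 to 916.2 CPM in luteal and 781.0 to 908.9 CPM in follicular libraries. In these lists 0 markers were without reads in all libraries, and their part in the values of the IGF family was not tested.

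The other genes of the IGF axis covered receptors, carriers, proteases and their inhibitors, growth hormone signalling and the IGF2 mRNA binding proteins. Of 20 listed genes 16 were tested, and edgeR called 0 of them. In luteal libraries 9 averaged higher and 7 lower, with a median log2 fold change of 0.06, and 1 had an unadjusted p under 0.05, beside 11.4% of all genes. That gene was ADAM12, a metalloprotease that can cut binding proteins, at 1.42 ± 0.31 CPM in luteal and 0.89 ± 0.32 CPM in follicular libraries (SD, n = 5 each; log2 fold change 0.64, SE 0.27; edgeR adjusted p = 0.426). SOCS2, which damps growth hormone signalling, averaged 12.7 ± 1.93 and 9.06 ± 3.00 CPM in luteal and follicular libraries (log2 fold change 0.49, SE 0.23). IGF2BP2, which binds the IGF2 mRNA, averaged 7.54 ± 1.86 CPM in luteal and 5.62 ± 1.50 CPM in follicular libraries (log2 fold change 0.42, SE 0.23). INS, the insulin gene next to IGF2 in the assembly, was sparse, with 5 to 16 reads in luteal and 7 to 31 reads in follicular libraries (log2 fold change -1.18, SE 0.59). For these 4 genes edgeR gave adjusted p of 0.426 to 0.432.

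Receptors and a regulator with higher counts were also measured. IGF2R, which clears IGF2 from the cell surface, averaged 89.2 ± 7.43 CPM in luteal and 82.6 ± 8.97 CPM in follicular libraries, and INSR, the insulin receptor, 52.0 ± 3.42 CPM in luteal and 54.8 ± 6.19 CPM in follicular libraries (SD, n = 5 per phase). STC1, a stanniocalcin and a relative of the PAPPA inhibitor STC2, averaged 218.8 ± 37.7 CPM in luteal and 203.1 ± 35.0 CPM in follicular libraries. These 3 genes were named after their values had been seen. PAPPA itself, with 5 to 16 reads in luteal and 1 to 8 reads in follicular libraries, and IGFBP1, with 0 to 12 reads in luteal and 0 to 7 reads in follicular libraries, did not pass the filter.

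Downstream of the receptor all 32 listed signalling genes were tested, and edgeR called 0. Of these, 22 averaged higher and 10 lower in luteal libraries, with a median log2 fold change of 0.15, beside 51.5% of all genes higher and a median of 0.01. At an unadjusted edgeR p under 0.05, 2 were higher and 3 lower. GRB14, an adaptor that inhibits the insulin receptor, had 1.903, 1.32, 1.87, 1.47 and 1.22 CPM in luteal libraries 1 to 5 and 2.36, 2.60, 1.96, 2.21 and 2.83 CPM in follicular libraries 1 to 5. FOXO1, a transcription factor that AKT keeps out of the nucleus, had 27.4, 24.97, 25.5, 22.9 and 27.2 CPM in luteal libraries 1 to 5 and 31.1, 27.6, 36.6, 32.6 and 29.0 CPM in follicular libraries 1 to 5. For these 2 genes every luteal value lay below every follicular value, as it did for 0.514% of all genes tested. The log2 fold change was -0.63 (SE 0.20) for GRB14 and -0.29 (SE 0.11) for FOXO1, each with edgeR adjusted p = 0.426.

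EIF4EBP1, a repressor of translation that mTOR inactivates, averaged 40.8 ± 11.4 CPM in luteal and 57.5 ± 14.1 CPM in follicular libraries (SD, n = 5 each; log2 fold change -0.49, SE 0.20). IRS4, a docking protein of the insulin and IGF1 receptors found in the hypothalamus, averaged 41.3 ± 14.8 CPM in luteal and 23.3 ± 13.0 CPM in follicular libraries (log2 fold change 0.82, SE 0.34). Follicular 5 had 45.5 CPM of IRS4, inside the luteal range of 25.2 to 60.9 CPM, and the other follicular libraries had at most 24.2 CPM. IRS1, named after its values had been seen, averaged 28.6 ± 11.8 CPM in luteal and 17.3 ± 6.54 CPM in follicular libraries (log2 fold change 0.72, SE 0.31). For these 3 genes edgeR gave adjusted p = 0.426, and GRB14, FOXO1, EIF4EBP1, IRS4 and IRS1 were the 5 of 32 signalling genes with an unadjusted p under 0.05, beside 11.4% of all genes.

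**Figure D4:**
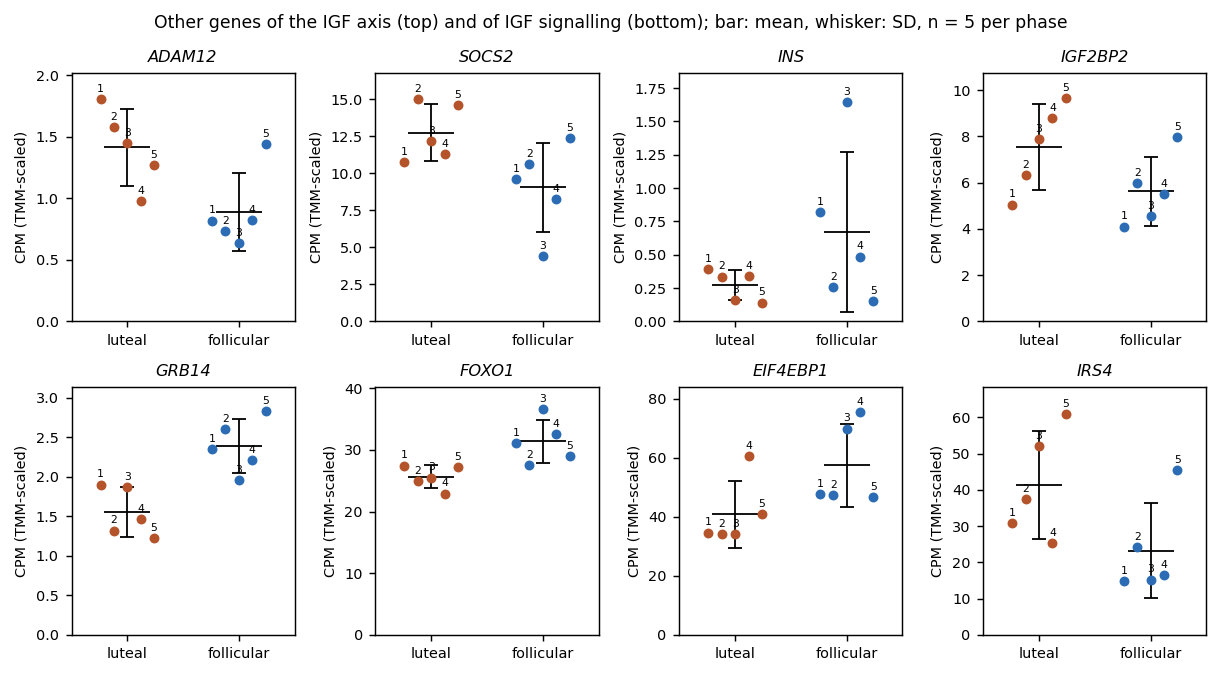
Each panel plots the level of 1 gene in CPM (TMM-scaled, axis from 0) in the 5 luteal and the 5 follicular libraries, numbered, with the mean as a bar and the SD as a whisker, for ADAM12, SOCS2, INS and IGF2BP2 of the IGF axis and GRB14, FOXO1, EIF4EBP1 and IRS4 of IGF signalling. GRB14 and FOXO1 do not overlap between phases. Follicular 5 is the highest follicular library for ADAM12, SOCS2, IGF2BP2 and IRS4, which average higher in luteal libraries. It is also the highest for GRB14, which averages lower in luteal libraries.

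The genes whose log2 CPM was most like each member over the 10 libraries were ranked by Pearson's r among the 13006 other genes with a mean of at least 5 CPM, as a description. IGFBP6 was followed most closely, by MCOLN1 (r = 0.996) and LIN37 (r = 0.994). IGFBP2 was most like TMEM86B and SLC35C2, IGFBP5 most like PLEKHG5 and HIBCH, and IGFBP4 most like CSNK1E and GAREM1, with r of 0.96 to 0.98. IGF2 was most like PCOLCE and ITGB5 (r = 0.97 and 0.96), IGF1R most like FOXK2 and KHSRP (r = 0.98 and 0.97), and IGFBP7 most like ATP13A1 and TPT1 (each r = 0.92). The likeness was lowest for IGFBP3, with LINS1 and FOXP1 (r = 0.87 and 0.83), and for IGF1 the nearest were LOC121818816 and RANBP17 (r = 0.97 and 0.93). These genes share libraries, depth and the broad axis with the members, and high values arise readily when the best of many genes is taken.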

How the data were processed

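RNA of the mediobasal hypothalamus was extracted with TriReagent and libraries were built with a stranded TruSeq mRNA kit, per the labels' protocols. Each library mixed RNA of 2 ewes, so the spread behind a p-value is that among such mixes. Per the submitters' processing notes, the tools were featureCounts 2.0.0, SAMtools 1.9, Bowtie2 2.3.5.1, TopHat2 2.1.1, FastQC and bcl2fastq 2.20, with no settings given. Build, strand setting and treatment of shared reads are not given in the sources used here, so a member that overlaps another gene (IGF1R and PGPEP1L) could share reads with it. The authors deposited 1 table of raw counts per gene for 10 libraries. Symbols came from the table, and 492 from the gene table of ARS-UI_Ramb_v3.0 (31873 identifiers matched, 94.4%).

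Counts were fitted in R 4.3.3 with edgeR 4.0.16 (filterByExpr with minimum count 10 and minimum total 15, TMM, quasi-likelihood F-test, two-sided, phase as the only term), with Benjamini-Hochberg adjustment over 18276 genes and a threshold of 0.05. Fold changes are luteal over follicular, with SE taken as the log2 fold change over the square root of F. Correlations were computed on log2 CPM (prior count 2) with 100000 permutations. The model was tested on simulated data. Alternatives were RLE and upper-quartile scaling, other filters, DESeq2 1.42.0, limma-voom (limma 3.58.1), a replicate block, leaving out libraries and, added after seeing the data, the first principal component as a covariate.

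The members, gene lists, tests and alternatives were chosen with earlier results of these data known. All 9 members were named, and of each pathway list the genes past the threshold and the 4 with the smallest p. For each member the 2 genes with the highest correlation were named, and marker lists were given as sums. No pair of libraries of a phase agreed within sampling noise (chi-square per degree of freedom of at least 12.8), so all were counted as separate.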

Additional observations from a re-analysis of the deposited data

Results flagged for a closer look

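Libraries far from the others of their phase were found by the distance to their nearest neighbour as a share of the phase's whole range, which had to pass Dixon's 95% limit of 0.71 for 5 samples. Among the members and the tested genes of the IGF axis this happened in 7 of 50 groups of libraries. For independent and normally distributed values chance gives about 1 in 20, or 2.5. The genes share the same libraries and all 7 values were the highest of their phase, so 7 and 2.5 cannot be compared as a test.

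Of the members, IGFBP7 was highest in luteal 4 at 304.8 CPM with the next luteal library at 216.6 CPM (ratio 0.777), and IGF1 was highest in follicular 1 at 2.36 CPM with the next follicular library at 1.59 CPM (ratio 0.713). The IGF1 value rests on 46 reads.

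Of the axis genes past this limit, 3 were highest in follicular 5 among the follicular libraries. Follicular 5 was also the highest follicular library for axis genes that did not pass it, among them SOCS2 (12.3 CPM), JAK2 (17.9 CPM) and IGF2BP2 (7.95 CPM). IGF2R was at 98.3 CPM with the next follicular library at 81.2 CPM (ratio 0.783), ADAM12 at 1.44 CPM with the next at 0.82 CPM (ratio 0.766), and GHR, the growth hormone receptor, at 15.3 CPM with the next at 7.01 CPM (ratio 0.738). PAPPA2 was highest in luteal 1 at 0.76 CPM with the next luteal library at 0.29 CPM (ratio 0.849), and INSRR was highest in follicular 1 at 4.46 CPM with the next follicular library at 1.80 CPM (ratio 0.746).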

How the results depend on the processing

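edgeR called 0 of the 9 members, 0 of the other axis genes and 0 of the signalling genes in every alternative run, and DESeq2 and limma-voom also called 0. Over all genes DESeq2 called 35 genes against 0 by edgeR, and edgeR called 1 gene without luteal 4, none a member. IGFBP4 and IGFBP5 stayed higher in luteal libraries in all 19 alternatives, with log2 fold changes of 0.74 to 1.04 and 0.60 to 0.88 when single libraries were left out, and with the smallest edgeR adjusted p at 0.0606 for each, without follicular 5 (largest 0.994 over all alternatives, without follicular 1 and 3). By DESeq2 their adjusted p was 0.0895 and 0.0833. Without follicular 5 the smallest edgeR adjusted p over all genes was 0.0512, and that of IGFBP6 was 0.0649. IGFBP2 and IGFBP6 stayed lower in luteal libraries in all alternatives except the first principal component as a covariate, at -0.60 to -0.26 and -0.58 to -0.26 with single libraries left out. That covariate turned the sign of IGFBP2 (0.20), IGFBP6 (0.11), IGF2 (0.065), IGF1 (0.078), IGFBP7 (0.044), IGF1R (-0.014) and IGFBP3 (-0.041), and leaving out follicular 1 and 3 turned IGF1 (0.19) and IGFBP3 (-0.059). The fit with the component compares the phases at an equal score on it, and the cause of the turned signs was not tested. With single libraries left out IGF1 ran from -0.14 to 0.13, IGFBP3 from -0.082 to 0.17 and IGFBP7 from -0.17 to 0.057, each crossing 0.

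Scaling moved the median of all genes by less than 0.1, from 0.01 by RLE to 0.03 by upper quartile. With the replicate block 0 members were called (IGFBP4 0.91 and IGFBP5 0.72, each edgeR adjusted p = 0.143). In that fit IGFBP2 was at -0.37 (SE 0.14, edgeR adjusted p = 0.155) and IGFBP6 at -0.37 (SE 0.17, edgeR adjusted p = 0.215). The smallest edgeR adjusted p over all genes was 0.052 with the block and 0.426 without it. The ewes were mixed at random, and the labels do not say that the numbers pair libraries. Deviations of same-numbered libraries correlated at 0.36, 0.05, -0.33, 0.28 and 0.63, and 1 of 5 luteal libraries was most like the follicular library of its own number. Whether libraries of the same number were processed together was not tested. IGF1 had the fewest reads of the members, at most 67 in a library, with an SE of 0.24 beside 0.24 for IGFBP4.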

Other observations

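IGF2BP3, an mRNA-binding protein known from embryonic tissue, did not pass the filter. It had 3, 7, 7, 5 and 2 reads in luteal libraries 1 to 5 and 1, 1, 0, 1 and 61 reads in follicular libraries 1 to 5. The gene was named after its values had been seen, and its reads in follicular 5 were not tested. IGF2BP1, its close relative, had at most 1 read in any library.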
